A study of Mus musculus with 20 samples.

Results

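The taxa described here are the smaller orders of the class Clostridia together with the phylum Firmicutes_B, in the feces of mice given chemotherapy or vehicle. Members were defined by their taxonomy, through a rule set with earlier results of these data known. It took in every entry of the phylum Firmicutes_A outside the orders Lachnospirales, Oscillospirales and Christensenellales, and every entry of Firmicutes_B. Each had at least 1 read in the 20 samples. This rule held for 22 of the 204 entries with reads in the species table, which fall in 19 entries of the genus table, 11 of the family table and 9 of the order table. They held 10212 of 902325 reads. A further 2 entries that the taxonomy would admit had no read in any sample. Of the 22 entries 8 carried a species name, and the others had no name or an empty name at the species or a higher rank, so that an entry can hold several species.

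All mice were C57BL/6 females aged 8 to 14 weeks, from a single supplier and housed together before treatment, as the methods of the study state. The FO group received oxaliplatin at 3.5 mg/kg, followed 1 h later by 5-fluorouracil (5-FU) at 50 mg/kg and by a second dose of 5-FU at 50 mg/kg on the next day, all into the peritoneum. Control mice were given PBS in the study's description of this experiment, while the labels allow PBS or water. Feces were collected on day 5, and the V4 stretch of the 16S rRNA gene, which bacteria share, was sequenced. Each group held 10 mice, 5 from the batch labelled E53B and 5 from the batch labelled E56A, and replicate numbers here only name mice.

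Clostridia are anaerobic bacteria of the gut that ferment fiber, sugars or amino acids, and many form spores. In mice the class is mostly made up of the 3 orders left out here. The smaller orders are less well known. Dehalobacteriales, the main order of Firmicutes_B in these samples, takes its name from a cultured relative that grows on dichloromethane, and its gut members are known mainly from sequence. The order TANB77, with its family CAG-508, is likewise known mostly from genomes assembled from fecal DNA, and its genera carry placeholder names. Peptostreptococcales here means the family Anaerovoracaceae, a group of strict anaerobes. Clostridiales here holds the family Clostridiaceae, spore formers that include the type genus Clostridium.

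Totals ran from 36797 to 57415 reads per mouse in the control group and from 17218 to 53509 in the FO group. A taxon with 0 reads could still hold up to 3 reads, which is 0.00523% of the deepest library and 0.0174% of the shallowest. Limits and intervals of this kind account for counting alone, because reads copied by PCR are not separate molecules. Shares are percentages of all reads of a mouse. In control mice 86.1% ± 4.37 (SD, n = 10) of reads were of Bacteroidota and 12.1% ± 3.96 of Firmicutes_A, compared with 66.6% ± 7.64 (SD, n = 10) and 28.5% ± 7.02 in FO mice. A higher share can therefore not be told apart from a loss of other bacteria, and the total bacterial load was not used here. Results that changed without control replicate 1 and FO replicate 5, a pair chosen with earlier results of these data known, are given with that value.

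Reads were very unevenly spread over the 9 orders. Dehalobacteriales held 64.3% of the members' reads, TANB77 23.4%, the Clostridia with no order assigned 7.46%, Clostridiales 2.24% and Peptostreptococcales 1.34%. The other 4 orders (Peptococcales, Acetivibrionales, UBA1381 and Eubacteriales) held 80, 38, 8 and 6 reads in all. Among all 26 order entries with reads, Dehalobacteriales came 6th by mean share and TANB77 9th. Dehalobacteriaceae and UMGS1994 sp900553945, of TANB77, were the 2 entries with reads in all 20 mice. The members together made up 0.202% to 1.30% of reads in control mice, with a median of 0.841%, and 0.901% to 2.04% in FO mice, with a median of 1.42%. Mice held 10 to 14 of the 22 entries in the control group and 10 to 17 in the FO group.

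**Figure D1:**
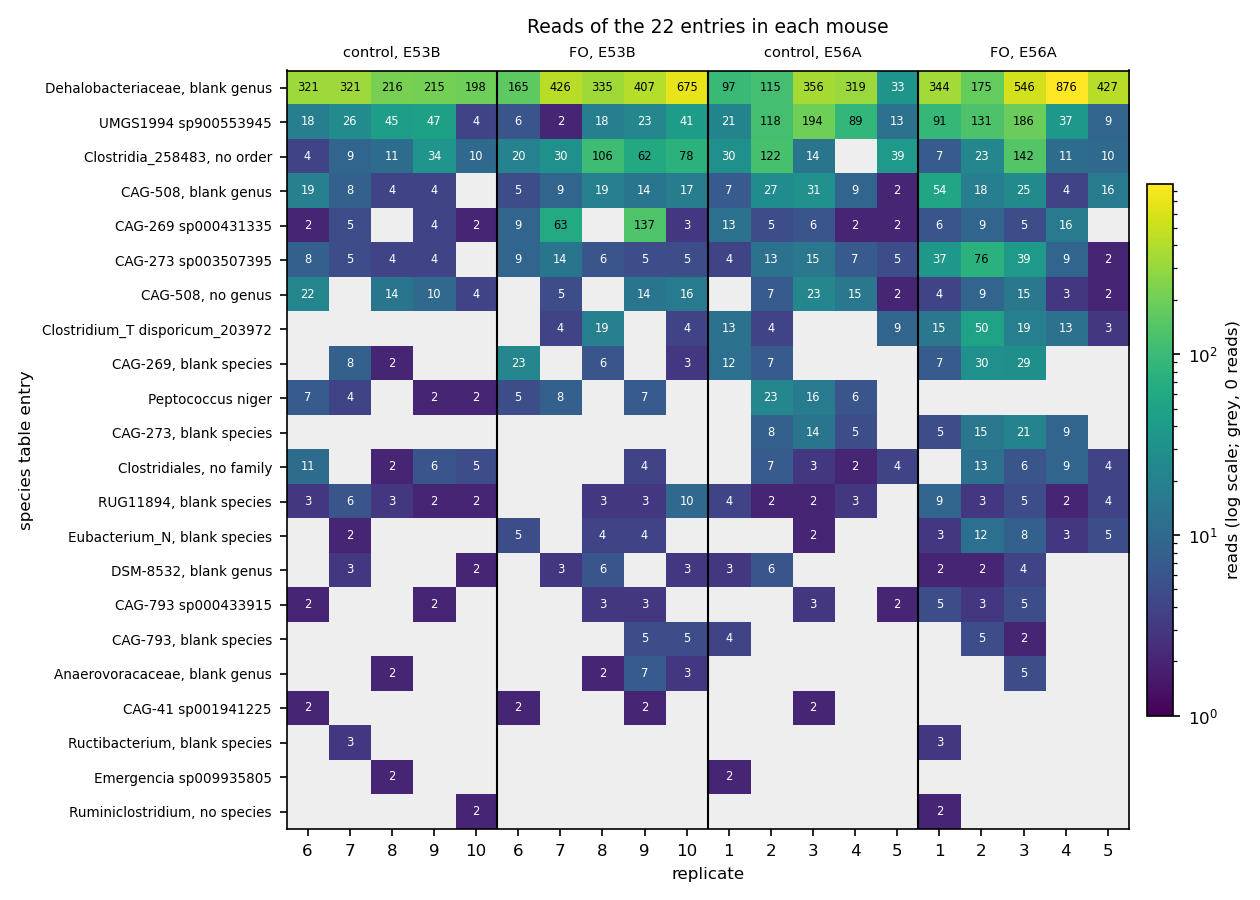
Reads of each of the 22 species table entries (vertical axis, ordered by total reads) in each of the 20 mice (horizontal axis, replicate number, grouped by treatment and batch). Colour shows reads on a log scale and grey shows 0 reads; Dehalobacteriaceae has 33 to 876 reads in every mouse, while the lowest 4 entries never pass 3 reads.

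The first comparison asked which of these taxa took a different share of reads after FO. Of the 5 orders that averaged 0.01% of reads or more, 2 were higher in FO mice after Benjamini-Hochberg adjustment over the 18 order entries tested, and none was lower (two-sided permutation test). Over all 18 entries 44.4% were called higher, so 2 of 5 is close to the background. The median ratio of FO to control shares was 2.11 for the 5 member orders and 2.25 for all 18 entries. The members that passed were Dehalobacteriales and Peptostreptococcales.

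Dehalobacteriales consisted of 1 entry, the family Dehalobacteriaceae with an empty genus name. In control mice its share was lowest at 0.0600%, in replicate 5 with 33 reads, had a median of 0.538% and was highest at 0.846%. In FO mice it ran from 0.345% in replicate 2, with 175 reads, over a median of 1.00% to 1.74% in replicate 4, with 876 reads. The groups overlapped, with 6 of 10 FO mice above every control mouse and 9 of 10 above the control median. Mean shares were 0.495% ± 0.258 (SD, n = 10) and 0.995% ± 0.382 (SD, n = 10), a 2.01-fold rise in share of all reads (permutation test, p = 0.00256, adjusted p = 0.00518). The direction turned when Bacteroidota were left out: of all other reads its share fell by 0.411 percentage points in FO mice, and of the Firmicutes_A and Firmicutes_B reads it fell by 0.322 percentage points (permutation test, adjusted p = 0.534 and 0.651). The counting error of a single mouse was small beside this spread: the 876 reads of FO replicate 4 have a 95% Wilson interval of 1.63% to 1.86%.

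The difference in Dehalobacteriales had the same sign in both batches, though only E53B passed. Its size in E56A depends on FO replicate 4, at 1.74%, while the other FO mice of that batch had 0.345% to 1.05%. In E53B the control shares lay between 0.481% and 0.701% and the FO shares between 0.816% and 1.35%, so the 5 FO mice stood above the 5 control mice (exact permutation test, p = 0.00794, the smallest p that 5 against 5 mice allow; adjusted p = 0.0159). In E56A the control mice were spread from 0.0600% to 0.846% and the FO mice from 0.345% to 1.74%, with a difference of 0.521 percentage points (exact permutation test, adjusted p = 0.156). The effects of 0.478 percentage points in E53B and 0.521 in E56A were not told apart by a test of their difference (exact permutation test, adjusted p = 0.888). In E53B alone 61.1% of order entries were called higher, and in E56A alone 16.7%. The member orders called were 2 in E53B, Dehalobacteriales and the Clostridia with no order, and 0 in E56A.

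Dehalobacteriales makes up nearly all of Firmicutes_B. With Peptococcus niger added, the phylum rose from 0.507% ± 0.260 (SD, n = 10) to 1.00% ± 0.383 (SD, n = 10), and passed over the 9 phylum entries tested (permutation test, adjusted p = 0.00405), of which 66.7% were called higher. Set against the reads of Firmicutes_A and Firmicutes_B alone, its share fell by 0.401 percentage points in FO mice and did not pass (permutation test, adjusted p = 0.429).

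Peptostreptococcales was a rarer order, with 37 reads in the 10 control mice and 100 in the 10 FO mice. Control mice had 0 to 8 reads each, a share of 0% to 0.0175% with a median of 0.00704%. FO mice had 0 to 18 reads, a share of 0% to 0.0399% with a median of 0.0248%. FO replicate 7 had no read, and 7 of 10 FO mice lay above every control mouse. Averaged over mice, 0.00827% ± 0.00563 (SD, n = 10) of control reads and 0.0231% ± 0.0118 (SD, n = 10) of FO reads were of this order, a 2.80-fold rise (permutation test, adjusted p = 0.00518). By batch, FO exceeded control by 0.0134 percentage points (E53B) and 0.0164 (E56A), and neither passed alone (exact permutation test, adjusted p = 0.124 and 0.0571). The call was lost on the log2 scale of the share (permutation test, adjusted p = 0.0868) and as a share of Firmicutes_A and Firmicutes_B reads, where the difference was 0.0220 percentage points (permutation test, adjusted p = 0.651).

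All reads of Peptostreptococcales belonged to Anaerovoracaceae, which had 4 entries. None of these passed a test of detection after adjustment, and they were not tested against each other. Eubacterium_N had 4 reads in 2 control mice and 44 reads in 8 FO mice, 5 of them from E56A. More than 3 reads were found in 0 of 10 control mice and 6 of 10 FO mice (Fisher's exact test, p = 0.0108, adjusted over 149 genera, p = 0.857). RUG11894 had 27 reads in 9 control mice and 39 reads in 8 FO mice. The entry with an empty genus name had 2 reads in 1 control mouse and 17 reads in 4 FO mice. Emergencia had 2 reads in each of 2 control mice and none in FO mice.

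**Figure D2:**
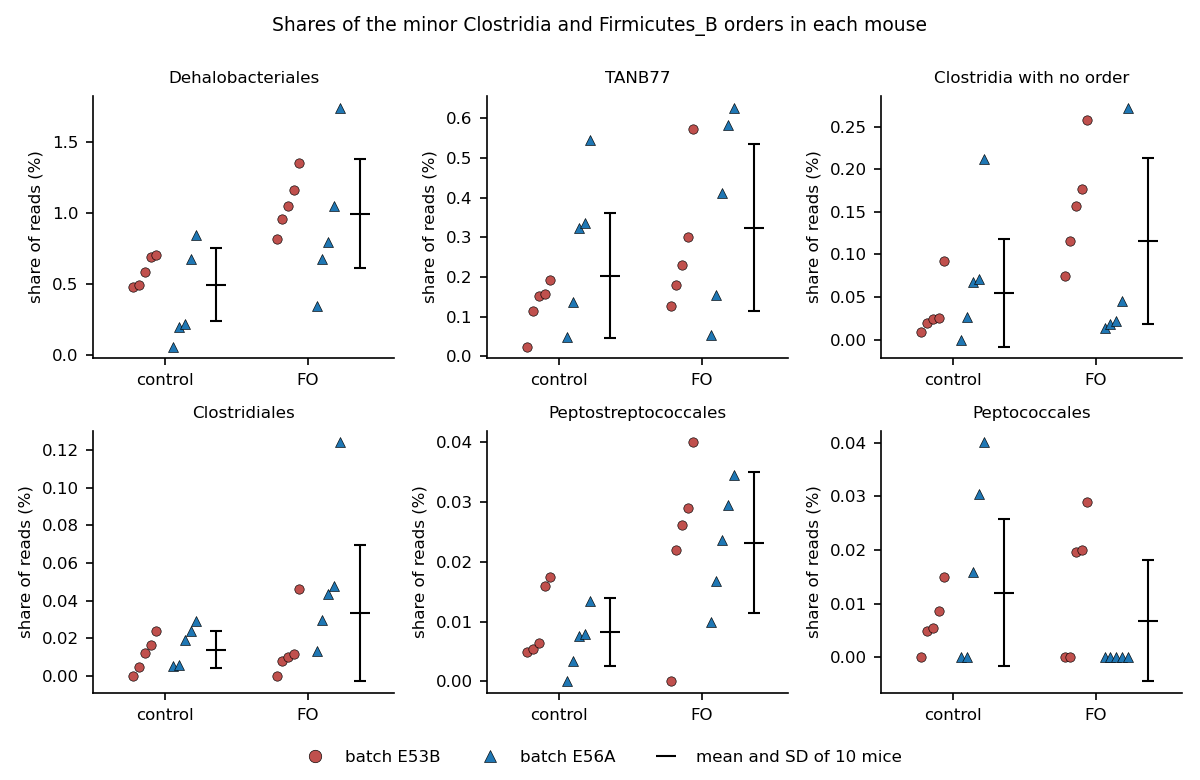
Share of all reads (vertical axis, percent) of 6 member orders in control and FO mice; circles are mice of batch E53B, triangles mice of batch E56A, placed side by side in rising order, and the bars show the mean and SD of 10 mice. In share of all reads the FO mice of E53B lie above the control mice of E53B for Dehalobacteriales, while TANB77 and Clostridiales overlap widely.

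TANB77, the second largest of these orders, overlapped between the groups. Its share ran from 0.0243% to 0.545% in control mice, with a median of 0.155%, and from 0.0542% to 0.628% in FO mice, with a median of 0.266%. The means of 0.203% ± 0.157 (SD, n = 10) and 0.324% ± 0.211 (SD, n = 10) did not differ by more than the spread between mice (permutation test, adjusted p = 0.193). The order had 3 of 10 FO mice above every control mouse. By batch, means were apart by 0.154 percentage points (E53B) and 0.0886 (E56A) (exact permutation test, adjusted p = 0.0816 and 0.684). With 1 mouse left out these ran from 0.0814 (without FO replicate 9) to 0.193 in E53B and from 0.0233 (without FO replicate 3) to 0.167 in E56A.

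Of the 8 member entries tested at the genus rank, 2 were called higher in FO mice after adjustment over the 83 genus entries tested, against 36.1% of all 83. These were Dehalobacteriaceae (adjusted p = 0.0104) and the TANB77 genus CAG-269 (permutation test, adjusted p = 0.0378). CAG-269 had 2 to 25 reads in each control mouse, a share of 0.00364% to 0.0561% with a median of 0.00809%. In FO mice it ran from 0 reads in replicate 5 to 137 reads in replicate 9, a share of 0% to 0.391% with a median of 0.0485%. In all, 5 of 10 FO mice lay above every control mouse, and the 3 highest, replicates 9, 6 and 7, were all of E53B. The mean share was 6.37-fold higher in FO mice, rising from 0.0150% ± 0.0166 (SD, n = 10) to 0.0958% ± 0.121 (SD, n = 10).

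The call for CAG-269 rests on a narrow margin. By batch the means were apart by 0.141 percentage points (E53B) and 0.0204 (E56A), neither of which passed alone (exact permutation test, adjusted p = 0.115 and 0.430), and the difference between these effects did not pass either (exact permutation test, adjusted p = 0.639). Without FO replicate 9 the difference fell from 0.0808 to 0.0480 percentage points (permutation test, adjusted p = 0.0579). Leaving out any 1 of control replicates 2 to 10 also ended the call, with adjusted p between 0.0651 and 0.0818. As a share of Firmicutes_A and Firmicutes_B reads it did not pass (permutation test, adjusted p = 0.522). On the log2 scale of the share the adjusted p was 0.0968 (permutation test). Without control replicate 1 and FO replicate 5 it passed (permutation test, adjusted p = 0.00546), as did 43.4% of all genera in either direction. The first is its highest control mouse, at 0.0561%, and the second its lowest FO mouse, with 0 reads, so nothing is read from this pass. The reads of CAG-269 came from CAG-269 sp000431335, with 41 reads in control and 248 in FO mice, and from an entry with no species name, with 29 and 98 reads. In FO replicates 7 and 9 all reads of the genus were of the named species, while in FO replicate 6 the unnamed entry had 23 of 32.

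UMGS1994, the largest genus of TANB77, ran from 0.00972% to 0.370% of reads in control mice and from 0.00494% to 0.357% in FO mice. Its mean share was 0.122% ± 0.116 (SD, n = 10) in control mice and 0.112% ± 0.116 (SD, n = 10) in FO mice (permutation test, adjusted p = 0.877). The lowest FO mouse was replicate 7 with 2 reads, the same mouse in which CAG-269 had 63. CAG-273 had a mean share of 0.0190% ± 0.0169 (SD, n = 10) in control mice and 0.0542% ± 0.0563 (SD, n = 10) in FO mice (permutation test, adjusted p = 0.109). Without FO replicate 2, which had 0.179%, the difference fell from 0.0352 to 0.0213 percentage points. Its named species, CAG-273 sp003507395, was 3.27-fold higher and did not pass over the 104 species entries tested (permutation test, adjusted p = 0.0636). The CAG-508 entry with an empty genus name was 1.75-fold higher and the one with no genus 0.688-fold (permutation test, adjusted p = 0.175 and 0.422). With 1 sample left out the differences ran from 0.00976 to 0.0212 and from -0.00951 to -0.00385 percentage points, and none passed. At the species rank 1 of 9 member entries tested was called higher, Dehalobacteriaceae, against 32.7% of all 104 entries.

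As shares of the order's own reads, UMGS1994 made up 60.0% of the pooled TANB77 reads of control mice and 38.1% of those of FO mice. CAG-269 made up 7.31% and 24.2%. By batch its pooled share was 8.42% in control and 50% in FO mice of E53B, and 6.86% and 10.9% in E56A. The mean share per mouse in E56A was 11.8% in control and 10.1% in FO mice, where control replicate 1 had 40.98% and the other control mice 1.57% to 7.69%. In the pooled shares mice with many reads weigh more, and no test was made. UMGS1994 had the most TANB77 reads in 7 of 10 control mice and 5 of 10 FO mice, and in control replicate 10 it tied with the CAG-508 entry with no genus at 4 reads each. CAG-269 led in 3 of the 5 FO mice of E53B, and in 1 control mouse, replicate 1 of E56A. In the FO mice of E56A UMGS1994 led in 4 of 5.

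**Figure D3:**
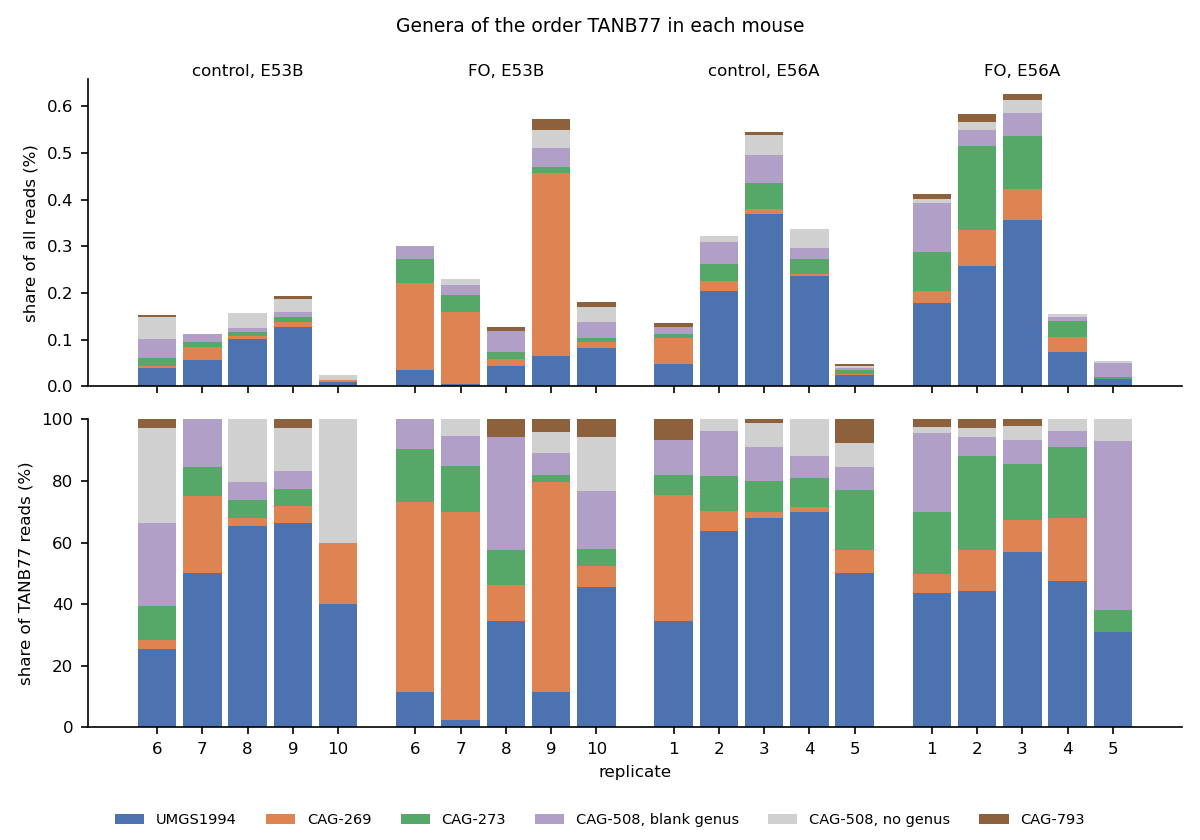
Genera of TANB77 in each of the 20 mice (horizontal axis, replicate number, grouped by treatment and batch), as a share of all reads (upper panel, percent) and of the TANB77 reads of that mouse (lower panel, percent). CAG-269 fills at least 61.5% of the lower bar in FO replicates 6, 7 and 9 of E53B, and UMGS1994 is the largest genus in 12 of the 20 mice and ties for largest in control replicate 10.

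Clostridiales had few reads per mouse. It had 66 reads in control mice and 163 in FO mice, and its share of 0.0140% ± 0.00990 (SD, n = 10) and 0.0334% ± 0.0364 (SD, n = 10) did not pass (permutation test, adjusted p = 0.137). The order held 2 entries, which were not tested against each other. Clostridium_T disporicum, the one species of Clostridiaceae with reads, had 26 reads in 3 control mice, all of E56A, and 127 reads in 8 FO mice, of which 50 in replicate 2. It was 4.95-fold higher by mean share, 0.00525% ± 0.00996 (SD, n = 10) against 0.0260% ± 0.0301 (SD, n = 10), and did not pass over the genera (permutation test, adjusted p = 0.0673). When labels were permuted inside each batch it did (permutation test, adjusted p = 0.0416), and so it did without control replicate 1 and FO replicate 5 (permutation test, adjusted p = 0.0199). Those settings called 42.2% and 43.4% of all genera, and control replicate 1 is its highest control mouse. In the other 9 of 11 alternatives it was not called. The fold rests on few mice: without control replicate 1 it was 10.03-fold, and without FO replicate 2 the difference fell from 0.0208 to 0.0127 percentage points. It also passed without any 1 of control replicate 1 and FO replicates 5, 6 and 9, with adjusted p between 0.0370 and 0.0443 (permutation test). Those fits called 37.3% to 49.4% of all genera, and in the other 16 of 20 fits with 1 sample left out Clostridium_T was not called. No read of it was found in the 5 control mice of E53B, each of which could hold up to 3 reads. Reads of Clostridiales with no family were 40 in 8 control mice and 36 in 5 FO mice.

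The Clostridia with no order assigned passed in E53B and not in E56A. In E53B their share was 0.0340% ± 0.0333 (SD, n = 5) in control mice and 0.156% ± 0.0692 (SD, n = 5) in FO mice, with 4 of 5 FO mice above every control mouse (exact permutation test, adjusted p = 0.0286). In E56A it was 0.0755% ± 0.0821 (SD, n = 5) and 0.0744% ± 0.111 (SD, n = 5) (exact permutation test, adjusted p = 0.968). Each of these means rests on 1 mouse: FO replicate 3 had 142 reads and control replicate 2 had 122. Without FO replicate 3 the FO mean of E56A was 0.0249%, and without control replicate 2 the control mean was 0.0412%, so that the direction in this batch turned on which mouse was left out. The 2 effects did not differ beyond the spread (exact permutation test of the difference of 0.123 percentage points, adjusted p = 0.565). Over both batches the share went from 0.0548% ± 0.0630 (SD, n = 10) to 0.115% ± 0.0975 (SD, n = 10) and did not pass (permutation test, adjusted p = 0.158). Since the entry gathers reads that no order could be given to, it can hold different bacteria in different mice.

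The 13 species entries below a mean share of 0.01% had 4 to 80 reads in all and were found in 2 to 17 mice. Peptococcus niger, an anaerobic coccus and the other member of Firmicutes_B, had 60 reads in 7 control mice and 20 reads in 3 FO mice. It was found in 3 of 5 control mice of E56A and in 0 of the 5 FO mice of that batch, and in 4 control and 3 FO mice of E53B. The entry of CAG-273 with no species name had 77 reads in 7 of 10 mice of E56A and in 0 of 10 mice of E53B, with 3 control and 4 FO mice among them. CAG-793, a further TANB77 genus, had 13 reads in control and 36 in FO mice, and the DSM-8532 entry of Acetivibrionales 14 and 20. Ruminiclostridium, Ructibacterium, Emergencia and CAG-41 had at most 3 reads in any mouse.

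Detection in more mice of one group was tested for each entry. With more than 3 reads taken as detected, 12 of the 22 entries were found in more FO than control mice, 3 in fewer and 7 in as many. Such a tally was not made over all 204 entries, and median totals were 45187 reads in control and 50102 in FO mice. Nothing is therefore read from it. None of the 22 passed Fisher's exact test after adjustment over the 204 species entries, of which 0% passed. Among members only Eubacterium_N had an unadjusted p under 0.05 (Fisher's exact test, p = 0.0108, adjusted p = 0.939), as did 3.43% of all entries. With any read taken as detected the same count was 0, with 1 unadjusted (Fisher's exact test, p = 0.0230), against 1.96% of all entries.

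Shares of a fixed total cannot move independently, and the second comparison therefore set each order against the 3 large orders of Clostridia. The ratio of its reads to the summed reads of Lachnospirales, Oscillospirales and Christensenellales was taken in each mouse on the log2 scale, with 0.5 added to each count. Those orders rose 2.26-fold, 2.58-fold and 2.28-fold in share of all reads. The adjustment ran over 23 entries, 15 orders and 8 phyla, some of which hold the same reads. Of the 5 member orders none passed, against 21.7% of the entries, which are 5 entries of 3 distinct taxa (permutation test). None had an unadjusted p under 0.05, against 26.7% of the 15 orders. For Dehalobacteriales the log2 ratio ran from -5.64 to -3.91 in control mice and from -5.58 to -4.40 in FO mice, with means of -4.76 ± 0.55 and -4.87 ± 0.41 (SD, n = 10). The difference was -0.12 (permutation test, adjusted p = 0.716), which is 0.922-fold. A difference between Dehalobacteriales, which is of another phylum, and these 3 orders of Clostridia was not detectable in these mice.

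The other orders were likewise not separated from their class. The difference in log2 ratio was -0.54 for TANB77 (permutation test, adjusted p = 0.530) and -0.35 for Clostridiales (adjusted p = 0.772). With 1 mouse left out the difference ran from -0.87 to -0.36 for TANB77, from -0.76 to -0.00015 for Clostridiales and from -0.21 to -0.023 for Dehalobacteriales, and none of these passed. It was 0.03 for Peptostreptococcales and 0.02 for the Clostridia with no order (permutation test, adjusted p = 0.979 for each). The batches had opposite signs for 4 of the 5 orders. The differences were -0.30 in E53B and 0.06 in E56A for Dehalobacteriales (exact permutation test, p = 0.119 and 0.897) and -0.48 and 0.53 for Peptostreptococcales (exact permutation test, p = 0.786 and 0.365). They were further apart for the Clostridia with no order, with 1.32 in E53B and -1.27 in E56A (exact permutation test, p = 0.0635 and 0.468), and for TANB77, with 0.07 and -1.15 (exact permutation test, p = 0.929 and 0.198). For orders with few reads, a mouse with no read takes its value from the added 0.5, as 2 mice do for Clostridiales, 2 for Peptostreptococcales and 1 for the Clostridia with no order.

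**Figure D4:**
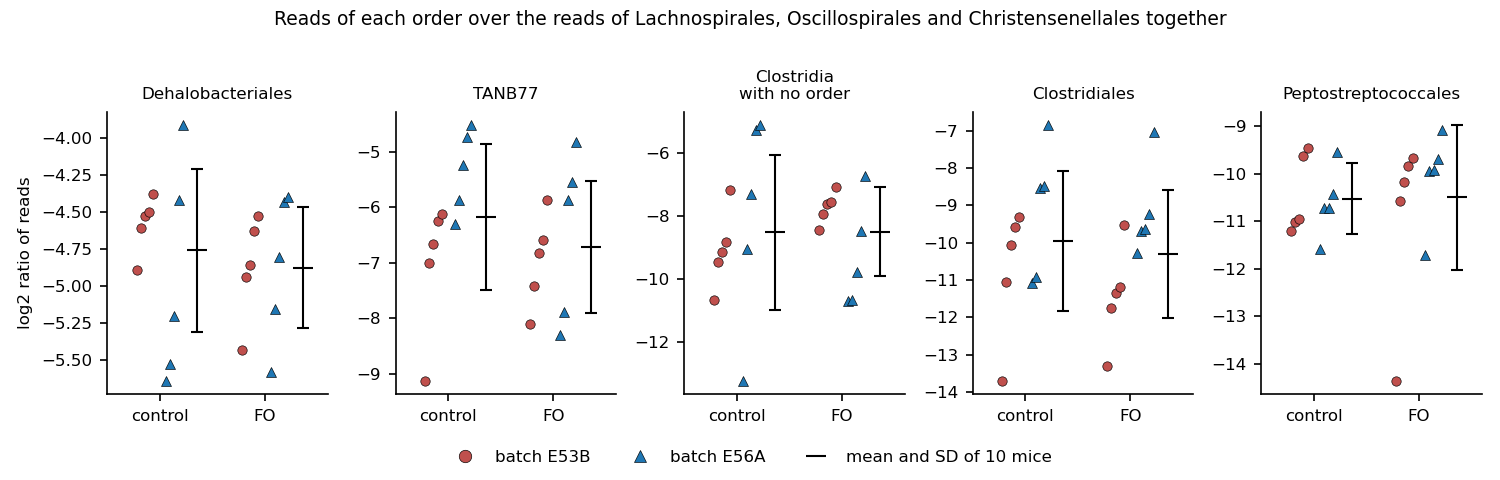
Log2 ratio of the reads of 5 member orders to the reads of Lachnospirales, Oscillospirales and Christensenellales together (vertical axes, which differ between panels) in control and FO mice; circles are mice of E53B, triangles mice of E56A, and the bars show the mean and SD of 10 mice. The groups overlap in all 5 panels, and means of Dehalobacteriales are -4.76 and -4.87.

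Counts were also tested with the quasi-likelihood test of edgeR, with batch as a term and TMM scaling, which scales samples on the assumption that most taxa do not change. The filter on low counts left 3 of the 9 member orders, Dehalobacteriales, TANB77 and the Clostridia with no order, and 4 of the 19 member genera. Peptostreptococcales and Clostridiales were removed by it, so this fit gave no result for them. Of the members left 0 were called at either rank, while 7.14% of the orders and 22.0% of the genera tested were called. At an unadjusted p under 0.05 there were 0 members, against 7.14% of orders and 35.6% of genera. The log2 change of Dehalobacteriaceae among genera was 0.38 with a standard error of 0.31 (edgeR, adjusted p = 0.437). The same reads gave -0.37 with a standard error of 0.34 among orders and -0.07 with a standard error of 0.33 among families (edgeR, adjusted p = 0.432 and 0.919), so that its direction in edgeR turned with the rank fitted. That of UMGS1994 among genera was -0.91 with a standard error of 0.57 (edgeR, adjusted p = 0.281). DESeq2 and limma on centred log ratios also called 0 member genera, against 28.8% and 18.6% of all genera tested. With total counts as the only scaling, 1 member genus was called, Dehalobacteriaceae, at a log2 change of 1.03 with a standard error of 0.37 (edgeR, adjusted p = 0.0259), against 49.2% of all genera. That setting also called 1 member order, 1 family and 1 species, against 57.1%, 56.0% and 47.9% of all entries. Scaling moved the median change of all 59 genera from 0.23 to 0.99 on the log2 scale, and the members with it, from 0.16 to 0.94. Without FO replicate 5, a mouse with no read of it, CAG-269 entered the fit and was among the 25.4% of genera called (edgeR, adjusted p = 0.0388). It entered because the filter then asked for 9 mice in place of 10, and 7 of the 9 that met the read minimum were FO mice, so that nothing is read from this call. With no filter and all mice its adjusted p was 0.156 (edgeR).

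The last comparisons asked whether the batches differed. Between control mice of E53B and of E56A, 0 of the 5 member orders passed in share, as did 0% of all 18 (exact permutation test, smallest adjusted p of a member = 0.364). At an unadjusted p under 0.05 there were 0 members and 11.1% of all orders. TANB77 had a mean of 0.128% in control mice of E53B and 0.278% in those of E56A, with an unadjusted p of 0.119 (exact permutation test). The FO effect on the share differed between batches for 0 of the 5 member orders and 0 of the 8 member genera, and for 0% of all orders and genera tested (exact permutation test). At an unadjusted p under 0.05 there were 0 members at either rank, against 5.56% of orders and 10.8% of genera. In edgeR the interaction term, the FO effect in E53B minus that in E56A, called 0 of 3 member orders and 0 of 4 member genera, against 7.14% of all orders and 0% of all genera. The Clostridia with no order had an interaction of 3.07 on the log2 scale among orders (edgeR, p = 0.0311, adjusted p = 0.218) and 2.71 among families (edgeR, p = 0.0344, adjusted p = 0.219). Of all orders 14.3% and of all families 16.0% had an unadjusted p under 0.05. The same reads gave 2.48 among genera and 2.67 among species (edgeR, p = 0.0805 and 0.0714). In DESeq2 the term called 0 member orders and 0 member genera, against 0% and 1.69% of all. It gave 1 member order and 1 member genus an unadjusted p under 0.05, against 21.4% and 13.6% of all.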

How the data were processed

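Bacterial DNA from 1 fecal pellet per mouse was amplified over the V4 region in duplicate reactions that were pooled. Per the methods, reads were demultiplexed, trimmed with cutadapt, merged, filtered, cleared of chimeras and grouped into operational taxonomic units in QIIME2, and classified against Greengenes2. The submitters' processing notes name bcl2fastq 2.2. The authors deposited whole-number read counts per taxon, not normalized, in tables from phylum to species. A taxon was counted by its classification, so its calls depend on what a short region can resolve, and members had no count of exactly 1. Reads without a name at a rank stayed as entries of their own. Rows were tied to samples through their labels, and 0 columns went unused for lack of a sample.

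Members and lists were chosen with earlier results of these data known. Shares used each sample's total. Group means were tested by permuting the treatment labels (two-sided, 100000 resamples), and within batches all splits of 5 against 5 were enumerated. Values of p were adjusted by Benjamini-Hochberg over all entries of a rank with a mean share of at least 0.01%, at a 5% threshold. Members at or above that share are described with values, the others by reads and mice, and an entry with the same reads at several ranks once. Counts were tested with edgeR 4.0.16 (TMM, filterByExpr, robust quasi-likelihood fit, batch term), DESeq2 1.42.0 with a mean dispersion fit and limma 3.58.1, in R 4.3.3, and detection with Fisher's exact test in scipy 1.17.1. Python 3.11.15, numpy 2.4.6 and pandas 2.3.3 were used. The test functions were tested on simulated data. Alternatives covered denominators, log scales, medians, drawing all samples down to 17218 reads, filters, scaling, tools, each batch and each sample left out. Leaving out 2 libraries in edgeR, group means within a batch without 1 mouse, and log ratios adjusted over orders alone were added after the data were seen. Nothing in the labels says whether mice shared a cage, so p-values measure the spread between these samples.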

Additional observations from a re-analysis of the deposited data

Results flagged for a closer look

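The share of 1 mouse lay far from the other 9 of its group in 6 of 22 checks (11 taxa in 2 groups), and the reason was not tested. A rate of about 1 in 20 by chance would hold for independent, normally distributed shares. Here some taxa hold the reads of others, as Clostridiales does of Clostridium_T, and several shares are 0, so that rate is no guide. In FO replicate 2, Clostridiales held 0.124% of reads against 0.0233% ± 0.0187 (SD, n = 9) in the other FO mice, and its genus Clostridium_T 0.0985% against 0.0180% ± 0.0170 (SD, n = 9). CAG-269 held 0.391% in FO replicate 9 against 0.0631% ± 0.0663 (SD, n = 9) in the other FO mice, and 0.0561% in control replicate 1 against 0.0105% ± 0.00872 (SD, n = 9) in the other control mice. The Clostridia with no order held 0.212% in control replicate 2 against 0.0372% ± 0.0317 (SD, n = 9). The CAG-508 entry with an empty genus name held 0.106% in FO replicate 1 against 0.0325% ± 0.0124 (SD, n = 9).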

How the results depend on the processing

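Dehalobacteriales kept its direction and call in 8 of 12 alternatives, Peptostreptococcales in 5 of 11 and CAG-269 in 4 of 11. With 1 sample left out, both orders kept theirs in all 20 fits and CAG-269 in 10 of 20. Among reads outside Bacteroidota, the FO minus control difference was -0.485 percentage points for Firmicutes_B, -0.515 for TANB77, -0.0338 for Clostridiales, -0.287 for the Clostridia with no order, -0.411 for Dehalobacteriales and -0.0439 for CAG-508 with an empty genus name, with 0.0179 for Peptostreptococcales and 0 member genera called (0% of all genera). Among Firmicutes_A and Firmicutes_B reads the values were -0.401, -0.503, -0.0349, -0.323, -0.322 and -0.0410 in that order, with 0.0220 for Peptostreptococcales and 0 called (0%). On centred log ratios they were -0.31 for Firmicutes_B, -0.45 for TANB77, -0.25 for Clostridiales, -0.025 for Dehalobacteriales and 0.12 for Peptostreptococcales (log2), with 0 called (12.0%). On the log2 scale of the share Peptostreptococcales, at 1.31, was no longer called and 1 member genus was (39.8%).

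In E53B alone the difference was 0.0134 percentage points for Peptostreptococcales, not called, and 0.122 for the Clostridia with no order, called. In E56A alone it was 0.504 for Firmicutes_B, 0.0164 for Peptostreptococcales, -0.00106 for the Clostridia with no order and 0.000482 for UMGS1994, none called, and 0 member genera were (0%). A share minimum of 0.1% left 1 member genus called (55.9%). For the log ratios, Dehalobacteriales stood at 0.14 against Christensenellales alone and 0.064 in E56A, and TANB77 at 0.066 in E53B. Peptostreptococcales stood at -0.068 with a pseudocount of 1, -0.13 against Oscillospirales and -0.48 in E53B, and the Clostridia with no order at -0.089, -0.14 and, in E56A, -1.27. None of these passed. With total counts only, edgeR called 1 member order, 1 family, 1 genus and 1 species, against 57.1%, 56.0%, 49.2% and 47.9% of all entries. With the log ratios adjusted over orders alone 0 members were called.

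With 1 sample left out, member genera called by edgeR ran from 0 to 1, and the fit that called 1 called 25.4% of all genera. Those called by share ran from 1 to 3, while 27.7% to 49.4% of all genera were called by share. UMGS1994 ran from -0.0374 to 0.0174 percentage points, and the log ratios from -0.13 to 0.46 for Peptostreptococcales and from -0.50 to 0.40 for the Clostridia with no order. The cause of these shifts was not tested. No paired analysis was possible because replicate numbers only name mice in the order of deposition. Depth limits the rare members, for which 3 reads in the shallowest library are 0.0174% of its total.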
